A study of Mus musculus with 7 samples.

Results

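The 10 genes described here make up the MHC class II presentation pathway as mouse cells transcribe it, namely H2-Aa, H2-Ab1, H2-Eb1, H2-DMa, H2-DMb1, H2-DMb2, H2-Oa, H2-Ob, Cd74 and Ciita. They were taken by gene symbol from a table of 34745 genes, and all 10 were found and passed the filter on low counts. RNA sequencing had been done on naive CD4 T cells, the helper lineage before its first contact with antigen, from the spleens of 8-week-old male C57BL/6 mice. The 4 GOF libraries came from mice heterozygous for a gain-of-function allele of Pik3cd, the gene of the p110delta catalytic subunit of phosphoinositide 3-kinase, and the 3 WT libraries from wild-type littermates. All mice were untreated and kept free of specific pathogens, and the cells went into lysis after negative selection with a commercial kit, which removes unwanted cells by antibody and leaves the wanted cells unlabelled. The labels give neither the amino acid change nor the tissues that carry it. The design text counts mice per group, and each library is taken as 1 mouse.

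MHC class II molecules are heterodimers of an alpha and a beta chain that show peptides from endocytosed protein to CD4 T cells. The invariant chain, encoded by Cd74, occupies the groove during assembly, and H2-DM (H2-DMa with H2-DMb1 or H2-DMb2) later exchanges its remnant for peptide, while H2-O (H2-Oa with H2-Ob) restrains H2-DM. Ciita is the coactivator that switches the family on. In mice these genes are typical of B cells, dendritic cells and other antigen-presenting cells and are low or silent in T cells. C57BL/6 mice lack a working alpha chain for the E molecule, and its gene, listed as the pseudogene H2-Ea-ps, had 0 counts in all 7 libraries.

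The libraries held 14497957 to 16293539 counts. Pik3cd, the targeted gene, had 543, 762, 538 and 765 CPM (counts scaled to a common library total with TMM factors) in GOF replicates 1 to 4, against 938, 1511 and 959 CPM in WT replicates 1 to 3, and gene counts do not show the allele. Its log2 fold change was -0.80 (SE 0.20, edgeR quasi-likelihood adjusted p = 0.0154), and without GOF replicates 1 and 3 it was -0.58 (adjusted p = 0.106). Of the genes that define the labelled cells, Cd4 stood at 1065, 1137, 1064 and 1163 CPM in GOF and 698, 855 and 712 CPM in WT libraries, and the T cell receptor genes Cd3e and Trac averaged 524 ± 19.3 and 1295 ± 87.5 CPM in GOF (SD, n = 4), against 401 ± 3.41 and 584 ± 18.8 CPM in WT (SD, n = 3). Of 9 T cell markers 8 rose and 0 fell in GOF, where 16.8% of all tested genes were higher and 14.5% lower. Of 6 markers of naive T cells 0 rose and 4 fell, and 1 rose without GOF replicates 2 and 4. GOF replicates 1 and 3 stood apart from replicates 2 and 4, with more counts of B cell and macrophage genes, and WT replicate 2 held more B cell counts than the other WT libraries. For the 10 members, results are given with and without these libraries where that changed them, and for other genes in part.

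Class II promoters are known for an X box, bound by the RFX complex and CREB, followed by a Y box, bound by NF-Y, at a fixed spacing, and Ciita docks on that assembly. The stretches below, aligned at the Y box, show its letters and the X box letters where they were found. They are from the 6 searched members with a RefSeq promoter window at or inside the deposited locus. The build is GRCm38.p6, which has the coordinates of mm10, and for H2-DMb1 and H2-DMb2 the RefSeq start lies inside the locus. Capitals mark the Y box letters ATTGG and, where present, the X box letters AACNNATG upstream of it on the same strand.
H2-Aa, chr17:34287857-34287916, - strand: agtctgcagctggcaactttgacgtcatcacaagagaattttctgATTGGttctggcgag
H2-Eb1, chr17:34305763-34305822, + strand: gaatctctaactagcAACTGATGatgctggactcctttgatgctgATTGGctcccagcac
H2-DMb1, chr17:34153085-34153144, + strand: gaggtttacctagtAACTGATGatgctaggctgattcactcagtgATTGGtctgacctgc
H2-DMb2, chr17:34145114-34145173, + strand: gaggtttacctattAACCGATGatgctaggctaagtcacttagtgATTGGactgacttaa
H2-Oa, chr17:34092291-34092350, + strand: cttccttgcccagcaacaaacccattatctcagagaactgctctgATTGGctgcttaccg
H2-Ob, chr17:34238803-34238862, + strand: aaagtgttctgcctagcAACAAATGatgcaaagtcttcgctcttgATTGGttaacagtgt
The pair of motifs, 10 to 40 bases apart on either strand, was in 4 of the 7 members searched. These were H2-Eb1, H2-DMb1, H2-DMb2 and H2-Ob, with gaps of 22, 23, 23 and 20 bases. It was in 87 of 32851 promoter windows of the same length (0.265%), whereas ATTGG alone was in 37.4% and AACNNATG alone in 8.86%, counting both strands. The X letters were chosen after these windows had been read, so the share is a description. H2-Ob, which fell in GOF, holds the motif pair, as do 3 members that rose. The windows of H2-Aa and H2-Oa hold the Y box without these X letters. The 2 windows listed for H2-DMa start outside its deposited locus and are not shown. H2-Ab1, Cd74 and Ciita were not among the 7 searched, Cd74 because windows on its chromosome were left out.

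Of the 10 members 7 were more abundant in GOF libraries and H2-Ob was less abundant, while H2-DMa and Ciita did not pass the test. In the edgeR fit over all 12668 tested genes, 7 of 10 members were higher at an adjusted p under 0.05, where 16.8% of all tested genes were, and 1 of 10 was lower, where 14.5% of all were. In either direction 8 of 10 passed, against 31.3% of all, and 53.7% of all calls were higher in GOF, or 63.9% when libraries were scaled by their totals alone. The median log2 fold change of the 10 was 1.56, against 0.01 over all tested genes. All 4 GOF libraries lay above all 3 WT libraries for 8 members, as for 21.5% of tested genes, and below them for H2-Ob, as for 18.2%. In bulk RNA such a difference, up or down, cannot tell a changed number of cells of a type from a changed amount of RNA per cell. Within GOF, replicates 1 and 3 were the 2 highest libraries for all 10 members, an order found in 25.3% of tested genes. Within WT, replicate 2 was the highest for 9 of the 10, all but H2-DMa, as for 38.5% of tested genes.

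**Figure D1:**
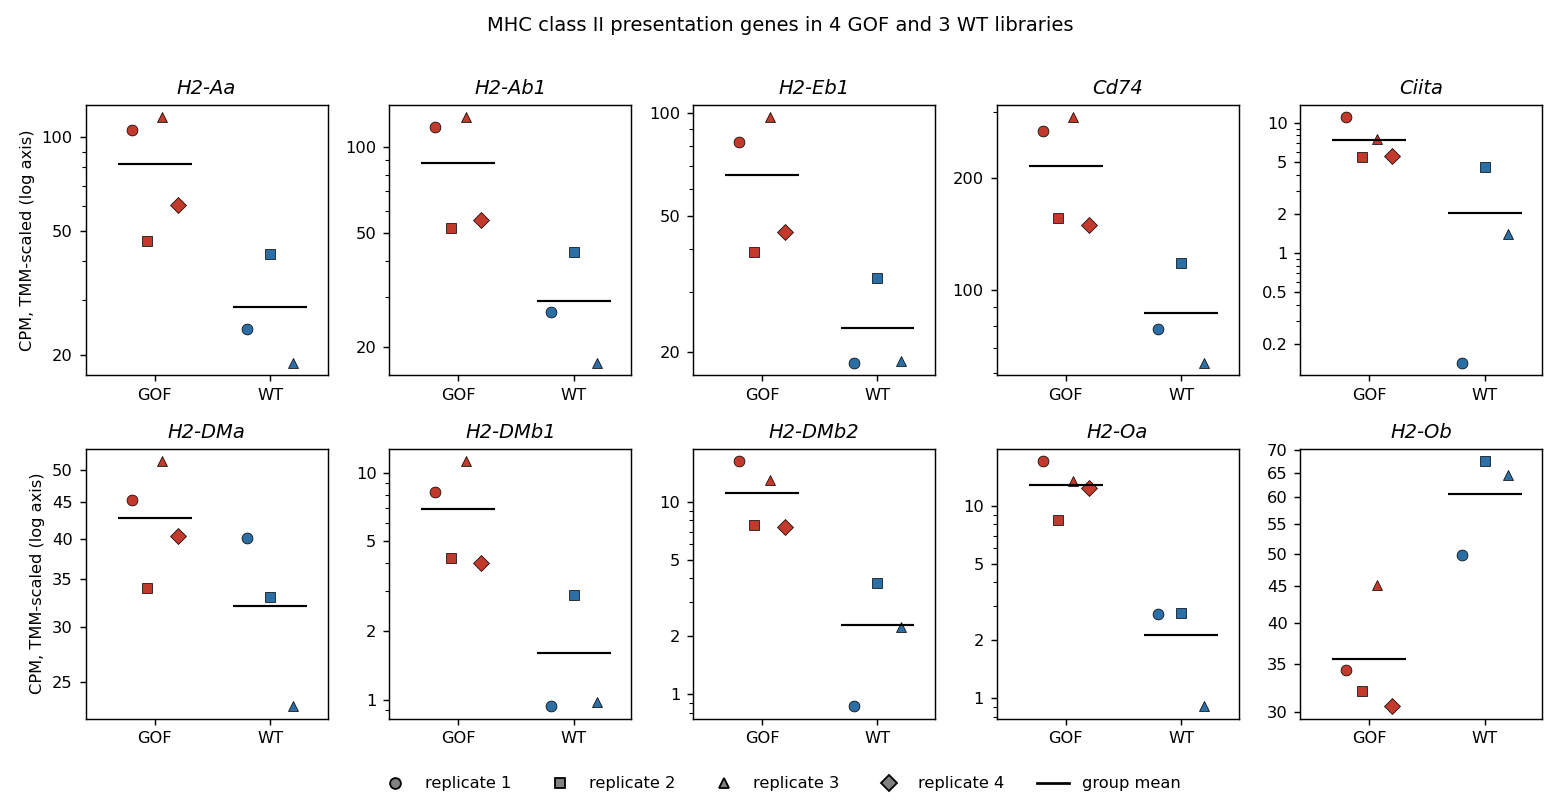
CPM of the 10 class II presentation genes in each library (log axes), with 4 GOF libraries to the left and 3 WT libraries to the right in each panel, symbols for replicate numbers and lines for group means. GOF replicates 1 and 3 are the upper symbols of their group in every panel, and H2-Ob is the panel in which WT lies above GOF.

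The chains of the A molecule rose together. H2-Aa (ENSMUSG00000036594, chr17:34282744-34287827, minus strand, mm10), the alpha chain, had 106, 46.4, 116 and 60.5 CPM in GOF replicates 1 to 4, against 24.2, 42.4 and 18.9 CPM in WT replicates 1 to 3. The groups did not overlap, but GOF replicate 2 lay close to WT replicate 2. The log2 fold change was 1.53 (SE 0.38, edgeR adjusted p = 0.0142), a 2.88-fold higher mean. H2-Ab1 (ENSMUSG00000073421, chr17:34263209-34269418), the beta chain, had 118, 52.0, 127 and 55.6 CPM in GOF and 26.6, 42.8 and 17.6 CPM in WT libraries. Its mean was 88.1 ± 39.8 CPM in GOF (SD, n = 4) and 29.0 ± 12.8 CPM in WT (SD, n = 3), with a log2 fold change of 1.60 (SE 0.40, edgeR adjusted p = 0.0157). Per length, in FPKM (fragments per kilobase of gene, scaled to the library total), H2-Aa stood at 0.823, 0.818, 0.838 and 0.998 of H2-Ab1 within GOF libraries 1 to 4 and at 0.837, 0.908 and 0.984 within WT libraries 1 to 3, so the ratio of the chains overlapped between the groups.

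H2-Eb1 (ENSMUSG00000060586, chr17:34305877-34316199), the beta chain of the E molecule, was transcribed at 82.1, 39.1, 97.1 and 44.8 CPM in GOF and 18.6, 33.1 and 18.9 CPM in WT libraries. It rose by 1.48 on the log2 scale (SE 0.36, edgeR adjusted p = 0.0128), although its alpha partner had no counts. Cd74 (ENSMUSG00000024610, chromosome 18), the invariant chain, was the most abundant member per length in every library. It had 266, 156, 290.3 and 149.8 CPM in GOF replicates 1 to 4, against 78.7, 118 and 63.9 CPM in WT replicates 1 to 3, and rose by 1.31 on the log2 scale (SE 0.29, edgeR adjusted p = 0.00926). Cd74 made up 38.2% to 42.5% of the summed FPKM of the 10 genes in GOF libraries and 36.6% to 38.2% in WT libraries.

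The peptide exchange factor H2-DM changed unevenly. Its alpha chain H2-DMa (ENSMUSG00000037649, chr17:34135182-34139101) had 45.4, 34.0, 51.5 and 40.3 CPM in GOF and 40.1, 33.1 and 23.1 CPM in WT libraries. These groups overlapped, and the log2 fold change of 0.42 (SE 0.20) did not pass (edgeR adjusted p = 0.148). Both beta chains rose. H2-DMb1 (ENSMUSG00000079547, chr17:34153072-34160230) had 8.20, 4.21, 11.2 and 3.99 CPM in GOF and 0.934, 2.89 and 0.975 CPM in WT libraries (log2 fold change 2.10, SE 0.54, edgeR adjusted p = 0.0165). H2-DMb2 (ENSMUSG00000037548, chr17:34143307-34151553) had 16.3, 7.54, 13.0 and 7.40 CPM in GOF and 0.862, 3.79 and 2.23 CPM in WT libraries (log2 fold change 2.26, SE 0.48, edgeR adjusted p = 0.00732). The longest coding transcripts of both are 94.6% identical over 1219 aligned bases, so the split of reads between them is uncertain. Per length, H2-DMa exceeded the sum of its beta chains by a factor of 1.80, 2.79, 1.96 and 3.43 in GOF libraries 1 to 4 and of 20.1, 4.62 and 7.13 in WT libraries 1 to 3, with no overlap.

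The chains of H2-O moved in opposite directions. H2-Oa (ENSMUSG00000024334, chr17:34092340-34095234), the alpha chain, had 17.1, 8.43, 13.5 and 12.4 CPM in GOF replicates 1 to 4, against 2.73, 2.75 and 0.905 CPM in WT replicates 1 to 3. With all 7 libraries its rise was the largest of the 10 members and had the smallest p, with a 6.04-fold higher mean (log2 fold change 2.59, SE 0.39, edgeR adjusted p = 0.00138), but without WT replicate 2 its log2 fold change of 2.82 was below those of Ciita (3.24), H2-DMb1 (2.84) and H2-DMb2 (2.83). H2-Ob (ENSMUSG00000041538, chr17:34238903-34245907), the beta chain, fell to 34.4, 32.1, 45.2 and 30.5 CPM in GOF libraries, against 49.8, 67.5 and 64.5 CPM in WT libraries. Its log2 fold change was -0.77 (SE 0.16, edgeR adjusted p = 0.00701), with every GOF value under every WT value. Per length, H2-Ob over H2-Oa was 0.804, 1.52, 1.34 and 0.986 in GOF libraries 1 to 4 and 7.30, 9.81 and 28.5 in WT libraries 1 to 3. By FPKM, H2-Ob RNA was thus in excess of H2-Oa RNA in every WT library and near parity with it in GOF. In CPM, which leaves out gene length, H2-Ob stood above H2-Oa in every library, and protein was not measured. A gene on the opposite strand, BC051537, overlaps H2-Oa and held 79 counts over the 7 libraries, and without a stated strand setting reads of such genes cannot be told apart.

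Ciita (ENSMUSG00000022504, chr16:10488178-10527564), the coactivator of the family, had the lowest mean of the 10 per length in both groups. It had 11.0, 5.49, 7.46 and 5.59 CPM in GOF and 0.144, 4.55 and 1.39 CPM in WT libraries, and the WT values rest on 2, 66 and 20 counts. All GOF libraries lay above all WT libraries, yet the log2 fold change of 1.86 (SE 0.72) did not pass (edgeR adjusted p = 0.0810). Without WT replicate 2 it was 3.24 (adjusted p = 0.0105), and with limma on log2(FPKM + 1) it was 0.85 (adjusted p = 0.0453). The protein-coding gene Dexi overlaps the deposited locus on the other strand, with 3145 counts over the 7 libraries, so part of the Ciita counts is uncertain.

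The calls rested in part on single libraries. Leaving out GOF replicates 1 and 3 left 1 member higher, H2-Oa (log2 fold change 2.28, edgeR adjusted p = 0.0159), where 8.53% of tested genes were higher. H2-Ob remained lower at -0.96 (adjusted p = 0.00969), where 8.34% were. The other 6 risers kept positive values of 0.81 to 1.69, with adjusted p of 0.054 for Cd74, 0.0628 for H2-DMb2, 0.0715 for H2-Eb1, 0.0982 for H2-Aa, 0.104 for H2-Ab1 and 0.136 for H2-DMb1. Without GOF replicates 2 and 4 the 7 risers passed with log2 fold changes of 1.69 to 2.85, where 13.6% of tested genes were higher, and H2-Ob did not (-0.59, adjusted p = 0.0631), where 10.5% were lower. Without WT replicate 3 the count of higher members was 3 (Cd74, H2-DMb2 and H2-Oa), where 1673 of 13077 tested genes were higher. Without WT replicate 1 it was 5, with H2-Ab1 and H2-DMb1 lost, where 1996 of 13074 tested genes were higher.

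**Figure D2:**
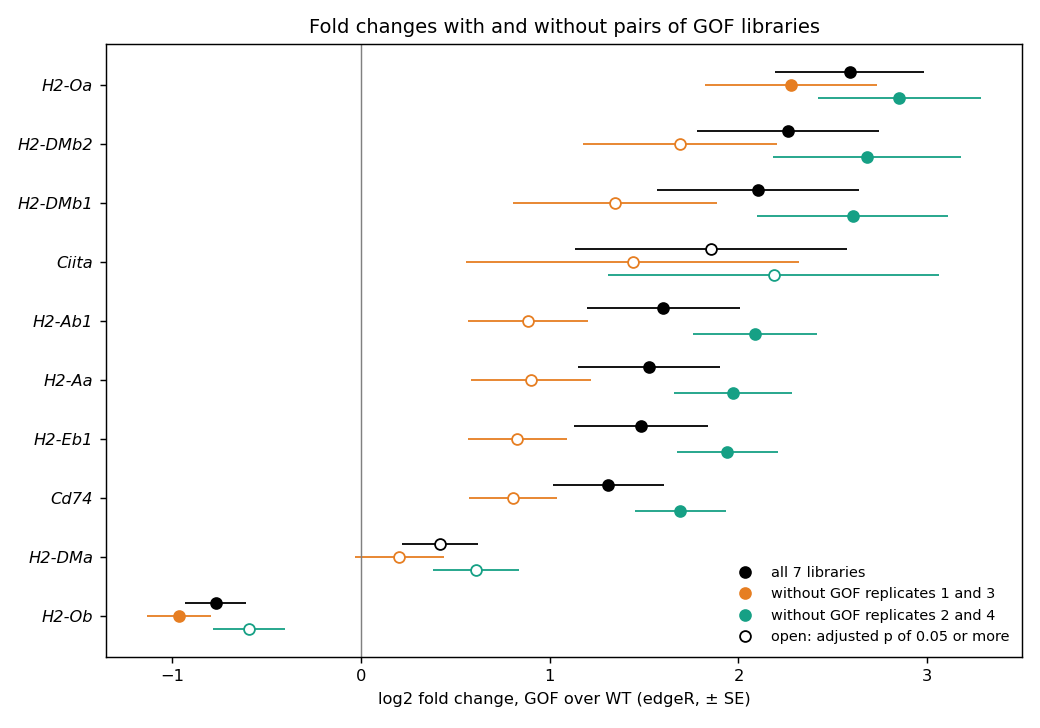
Log2 fold change (GOF over WT, horizontal axis, ± SE) of the 10 genes with all 7 libraries, without GOF replicates 1 and 3, and without GOF replicates 2 and 4, with open symbols where the adjusted p was 0.05 or more. H2-Oa stays filled in all 3 fits, at 2.59, 2.28 and 2.85, and H2-Ob is left of 0 in all 3.

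The order of levels per length differed between the groups. In GOF libraries mean FPKM fell in the order Cd74 (110.1 ± 37.5), H2-Eb1 (56.8 ± 24.5), H2-Ab1 (38.3 ± 17.3), H2-Aa (32.8 ± 13.6), H2-DMa (19.9 ± 3.45), H2-Ob (6.67 ± 1.24), H2-Oa (6.02 ± 1.69), H2-DMb2 (4.49 ± 1.79), H2-DMb1 (4.26 ± 2.15) and Ciita (1.44 ± 0.507; SD, n = 4 for each). Only the steps from H2-DMa to H2-Ob and from H2-DMb1 to Ciita were free of overlap between neighbours. In WT libraries the order was Cd74 (42.0 ± 13.4), H2-Eb1 (19.2 ± 6.73), H2-DMa (14.1 ± 3.61), H2-Ab1 (11.9 ± 5.21), H2-Ob (10.8 ± 1.75), H2-Aa (10.8 ± 4.62), H2-Oa (0.943 ± 0.464), H2-DMb1 (0.935 ± 0.652), H2-DMb2 (0.882 ± 0.562) and Ciita (0.374 ± 0.417; SD, n = 3 for each). There the steps from Cd74 to H2-Eb1 and from H2-Aa to H2-Oa were free of overlap. H2-DMa and H2-Ob thus stood among the A chains in WT and below them in GOF, where no GOF value of H2-Ob reached the lowest value of H2-Aa.

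**Figure D3:**
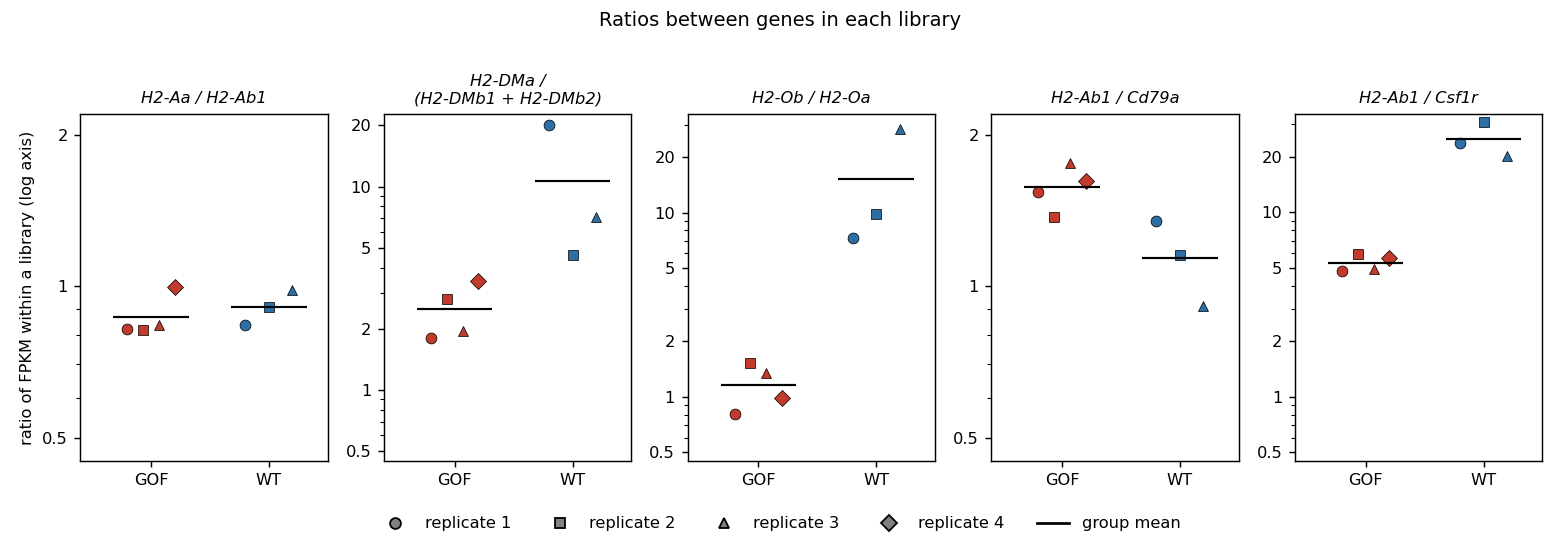
Ratios of FPKM between genes within each library (log axes), GOF libraries left and WT libraries right, with symbols for replicate numbers and lines for group means. H2-Aa over H2-Ab1 overlaps between the groups, whereas H2-Ob over H2-Oa runs from 0.804 to 1.52 in GOF and from 7.30 to 28.5 in WT.

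The 8 members other than Cd74 and Ciita lie together on chromosome 17 in the class II region, which also holds the class I peptide loaders Tap1 and Tap2 and the immunoproteasome subunits Psmb8 and Psmb9. Between the start of H2-Oa and the end of H2-Eb2 the table lists 18 genes, of which 15 were tested. Of the 8 members there 6 rose and H2-Ob fell, and of the 7 other tested genes 3 rose and 1 fell. Over all tested genes 16.8% were higher and 14.5% lower. The others that rose were Psmb9 (log2 fold change 0.99, edgeR adjusted p = 0.000138), Tap1 (0.79, adjusted p = 0.00221) and H2-Eb2 (1.59, adjusted p = 0.0402), a relative of H2-Eb1 with 1.35 to 3.77 CPM in GOF and 0.503 to 1.38 CPM in WT. The call of H2-Eb2 was lost without any one of GOF replicates 1, 2 and 3 or WT replicates 1 and 3 (adjusted p = 0.0511 to 0.117). Brd2, a bromodomain protein between H2-Oa and H2-DMa, fell (-0.51, adjusted p = 0.00182). Psmb8, Tap2 and Gm20506 did not pass, nor did H2-DMa. H2-Ob, which lies between Tap2 and H2-Ab1 with Gm20506, was the member that moved the other way.

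**Figure D4:**
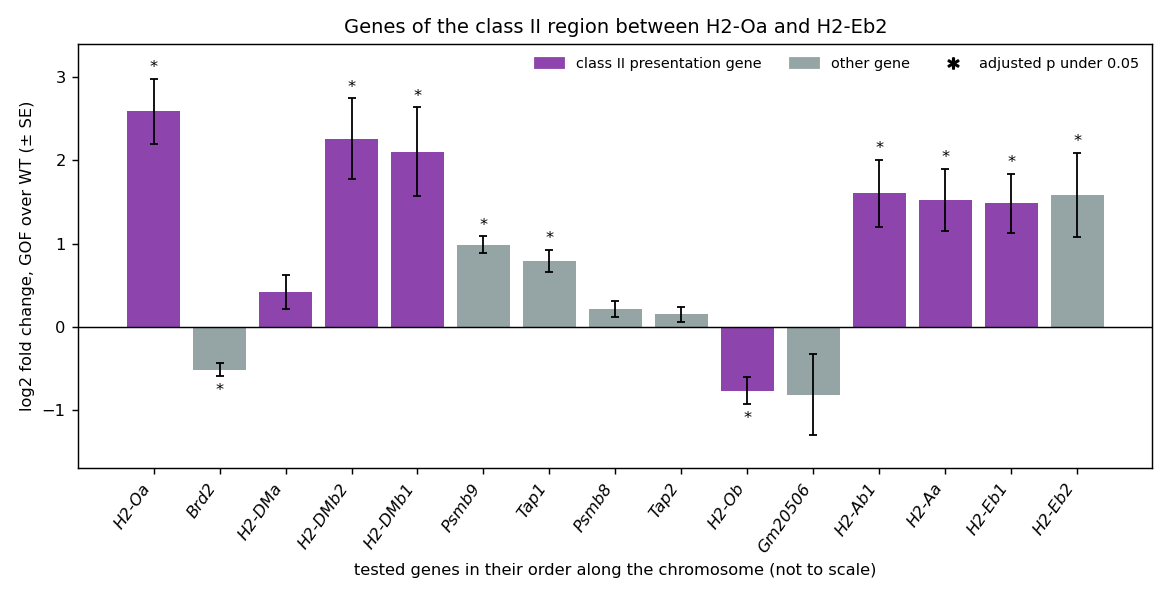
Log2 fold change (GOF over WT, ± SE, edgeR) of the 15 tested genes between H2-Oa and H2-Eb2 in their order along the chromosome, with class II presentation genes in purple, other genes in grey and asterisks at an adjusted p under 0.05. Values run from -0.81 at Gm20506, which did not pass, to 2.59 at H2-Oa.

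A wider list of class I genes and other genes of the region was mixed. Of 9 such genes 7 were tested, and 3 rose (Tapbp, Ring1 and H2-Eb2), 1 fell (Brd2) and 3 did not pass, with a median log2 fold change of 0.01. The shares over all tested genes were 16.8% higher and 14.5% lower. Tapbp, the class I loading protein tapasin, rose by 0.25 on the log2 scale (edgeR adjusted p = 0.0310) and Ring1, a Polycomb protein, by 0.32 (adjusted p = 0.0316). Both calls were lost in several fits without 1 library, for Tapbp without GOF replicate 1, 3 or 4 or WT replicate 1 or 3 (adjusted p = 0.0505 to 0.12) and for Ring1 without any library but GOF replicate 2 (0.0581 to 0.0825). The classical class I heavy chains H2-K1 and H2-D1 did not pass, at 0.01 and -0.04 (adjusted p = 0.956 and 0.770), and their sign turned with the scaling or the libraries used.

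Of 20 tested regulators of class II transcription 5 rose, 3 fell and 12 did not pass, with a median of 0.14, where 16.8% of all tested genes were higher and 14.5% lower. The count of higher regulators was 2 without GOF replicates 1 and 3. Irf1, an interferon-induced activator of Ciita, rose by 0.65 on the log2 scale (edgeR adjusted p = 0.00427). Irf8, Spi1 and Irf4, transcription factors of B and myeloid cells named after their values were seen, rose by 2.12, 2.14 and 1.58 (adjusted p = 0.00734, 0.00698 and 0.0134). Without GOF replicates 1 and 3 the calls of Irf8 (1.76, adjusted p = 0.0565) and Spi1 (1.34, adjusted p = 0.0502) were lost. Irf4 was not highest in those libraries, and its log2 fold change was 1.61 without them (adjusted p = 0.0608) and 1.55 without GOF replicates 2 and 4 (adjusted p = 0.0645). Kat2b, the acetyltransferase PCAF, fell to 78.9 ± 5.71 CPM in GOF (SD, n = 4), against 225 ± 18.9 CPM in WT (SD, n = 3; log2 fold change -1.51, adjusted p = 9.33e-06). Prdm1, a repressor of Ciita in plasma cells, fell with a log2 fold change of -1.18 (adjusted p = 0.00623), as did Crebbp, an acetyltransferase (-0.48, adjusted p = 0.00660, and -0.44, adjusted p = 0.0664, without GOF replicates 1 and 3; named after its value was seen).

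None of the subunits that bind the X and Y boxes passed in the edgeR fit with all libraries. Rfx5, Rfxap and Rfxank, the RFX complex, had log2 fold changes of 0.45, -0.12 and 0.09 (adjusted p = 0.123, 0.484 and 0.580). Nfya, Nfyb and Nfyc, the subunits of NF-Y, had -0.26, 0.20 and -0.05 (adjusted p = 0.135, 0.204 and 0.811), and Creb1 had -0.11 (adjusted p = 0.796). Without WT replicate 2, Rfx5 passed (0.71, adjusted p = 0.014) and so did Nfyb (0.31, adjusted p = 0.0493), and without GOF replicates 2 and 4 Nfya passed (-0.43, adjusted p = 0.0418). All but Rfxank were named after their values had been seen. Ctcf, an architectural protein that binds between class II genes, had 0.19 (adjusted p = 0.102) and passed with upper-quartile factors (0.27, adjusted p = 0.0268) and with library totals (0.27, adjusted p = 0.0359).

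Among 17 genes of endosomal and cytosolic antigen processing 7 rose, 2 fell and 8 did not pass, with a median log2 fold change of 0.26. Of all tested genes 16.8% were higher and 14.5% lower. Ifi30, the thiol reductase GILT of endosomes, had 61.0, 37.7, 67.1 and 43.8 CPM in GOF and 14.7, 19.0 and 17.1 CPM in WT libraries (log2 fold change 1.63, SE 0.22, edgeR adjusted p = 0.000658). Psmb9 and Tap1, of the class I route, are given above. Rab7, a GTPase of late endosomes, fell (-0.48, adjusted p = 0.00430), while Ctsd and Lamp1, a protease and a membrane protein of lysosomes, did not pass (-0.26 and 0.16, Lamp1 passing without GOF replicates 2 and 4 at an adjusted p of 0.0463). Ctss, the protease that trims the invariant chain in antigen-presenting cells, and Ctsl, which does so in thymic epithelium, were named after their values were seen. Ctss rose by 0.49 (adjusted p = 0.00671, and 0.37, adjusted p = 0.081, without GOF replicates 1 and 3) and Ctsl fell with a log2 fold change of -1.26 (adjusted p = 0.00463).

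For class II turnover and co-stimulation, 10 of 11 genes were tested, of which 5 rose, 1 fell and 4 did not pass, with a median of 0.46. Among all tested genes 16.8% were higher and 14.5% lower. The 5 higher genes became 3 without GOF replicate 3 or WT replicate 1 and in each limma fit, and 2 without GOF replicates 1 and 3. Cd86, a ligand of CD28, had 23.6, 20.4, 28.0 and 18.6 CPM in GOF and 6.47, 3.65 and 2.58 CPM in WT libraries (log2 fold change 2.42, edgeR adjusted p = 0.000505). Icosl, the ligand of ICOS, rose by 1.40 (adjusted p = 0.000514) and the tetraspanin Cd82 by 0.52 (adjusted p = 0.0192), a call lost at a similar size without GOF replicate 4 (0.50, adjusted p = 0.0522), replicates 1 and 3 (0.47, adjusted p = 0.131) or replicates 2 and 4 (0.57, adjusted p = 0.0555). Cd9, a tetraspanin found with class II molecules, fell to 54.1 ± 1.27 CPM in GOF (SD, n = 4), against 89.0 ± 7.34 CPM in WT (SD, n = 3; adjusted p = 0.000483). Cd83, which protects class II from ubiquitination, and Cd63 did not pass (0.41 and -0.61), but Cd83 passed without WT replicate 2 (1.02, adjusted p = 0.0366).

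The T cell side of class II recognition rose in all 3 genes listed, where 16.8% of all tested genes were higher. Lag3, an inhibitory receptor for class II, had 6.44, 6.26, 6.92 and 7.72 CPM in GOF and 0.934, 1.45 and 0.279 CPM in WT libraries (log2 fold change 2.93, SE 0.43, edgeR adjusted p = 0.00114). Cd4, the co-receptor, and Lck, its kinase, rose by 0.55 and 0.37 (adjusted p = 0.00264 and 0.00718). In none of these 3 were GOF replicates 1 and 3 the 2 highest.

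Markers of antigen-presenting cells were counted in the same libraries. The shares to set beside each list are 16.8% higher and 14.5% lower over all tested genes. Of 16 B cell markers 10 rose and 0 fell, with a median log2 fold change of 1.40. Their summed level was 839 to 1474 CPM in GOF libraries and 392 to 549 CPM in WT libraries. Ighm made up most of these sums, at 597 to 941 CPM in GOF libraries and 316 to 357 CPM in WT libraries. GOF replicates 1 and 3 were highest for all 16 markers and WT replicate 2 for 15. Without GOF replicates 1 and 3 the count of higher B cell markers was 3. It was 5 without GOF replicate 1, GOF replicate 3 or WT replicate 3, 15 without WT replicate 2 and 12 with DESeq2 or without GOF replicates 2 and 4. Of 15 macrophage and monocyte markers 14 rose and 0 fell (median 3.61), with sums of 164 to 510.1 CPM in GOF libraries and 46.4 to 86.9 CPM in WT libraries, and Mertk was at 0 in all WT libraries. GOF replicates 1 and 3 were highest for all 15 and WT replicate 2 for 5, and without those GOF libraries 9 were higher. Only 4 of 12 markers of conventional dendritic cells passed the filter, 2 of which rose (Itgax and Sirpa, also found on macrophages), and the sums were 25.4 to 64.8 CPM in GOF libraries and 8.01 to 10.3 CPM in WT libraries. Flt3 and Zbtb46, also tested, did not pass (log2 fold change 0.21 and 0.28, edgeR adjusted p = 0.789 and 0.628). Of the 12 listed genes Clec9a, Cd209a and Dcstamp were at 0 in WT, and Dcstamp also in GOF. Of 7 markers of plasmacytoid dendritic cells 4 were tested and 2 rose, Bst2 and Pacsin1. Tcf4 and Ccr9 did not pass (log2 fold change -0.13 and 0.80, edgeR adjusted p = 0.774 and 0.0803). Siglech, which did not pass the filter, had 2.15, 0.383, 1.56 and 0.193 CPM in GOF and 0, 0.207 and 0 CPM in WT libraries. The 7 markers summed to 223 to 262 CPM in GOF libraries and 109.7 to 129 CPM in WT libraries. Most of this came from Bst2 (means of 78.2 CPM in GOF and 40.8 CPM in WT) and Pacsin1 (151 and 73.6 CPM). Of 5 CD8 and NK cell markers 3 rose, Klrb1c, Klrk1 and Ncr1, and 1 of the 5 rose without GOF replicates 1 and 3. Cd8a and Cd8b1 did not pass (log2 fold change -0.78 and -0.23, edgeR adjusted p = 0.0972 and 0.300). The sums were 31.2 to 52.6 CPM in GOF libraries and 32.4 to 43.2 CPM in WT libraries. Of 4 markers of innate lymphoid cells 2 rose (sums of 16.9 to 22.5 CPM in GOF libraries and 7.80 to 10.9 CPM in WT libraries). In both lists 0 were lower. The part of these cells in the class II values was not tested.

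Ratios of class II genes to these markers were taken within each library. H2-Aa, H2-Ab1, H2-Eb1 and Cd74 together, over 13 B cell markers without immunoglobulins, gave ratios of summed CPM of 2.40, 2.28, 2.65 and 2.34 in GOF libraries 1 to 4 and 4.07, 1.98 and 2.30 in WT libraries 1 to 3, which overlap. Over the 15 macrophage markers the ratios were 1.19, 1.79, 1.24 and 1.69 in GOF and 1.70, 4.79 and 2.57 in WT libraries, which overlap at WT replicate 1. Per length, H2-Ab1 over Cd79a, a chain of the B cell receptor complex, was 1.54, 1.37, 1.76 and 1.62 in GOF and 1.35, 1.16 and 0.916 in WT libraries, with every GOF value above every WT value. Cd74 over Cd79a was 4.09, 4.83, 4.74 and 5.12 in GOF and 4.69, 3.75 and 3.91 in WT libraries, which overlap. The ratio of H2-Ab1 to Csf1r, the M-CSF receptor of macrophages, was 4.78, 5.95, 4.96 and 5.68 in GOF and 23.6, 31.0 and 20.3 in WT libraries. These ratios are descriptions over 4 and 3 libraries that fall into separate groups, so no correlation was computed.

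**Figure D5:**
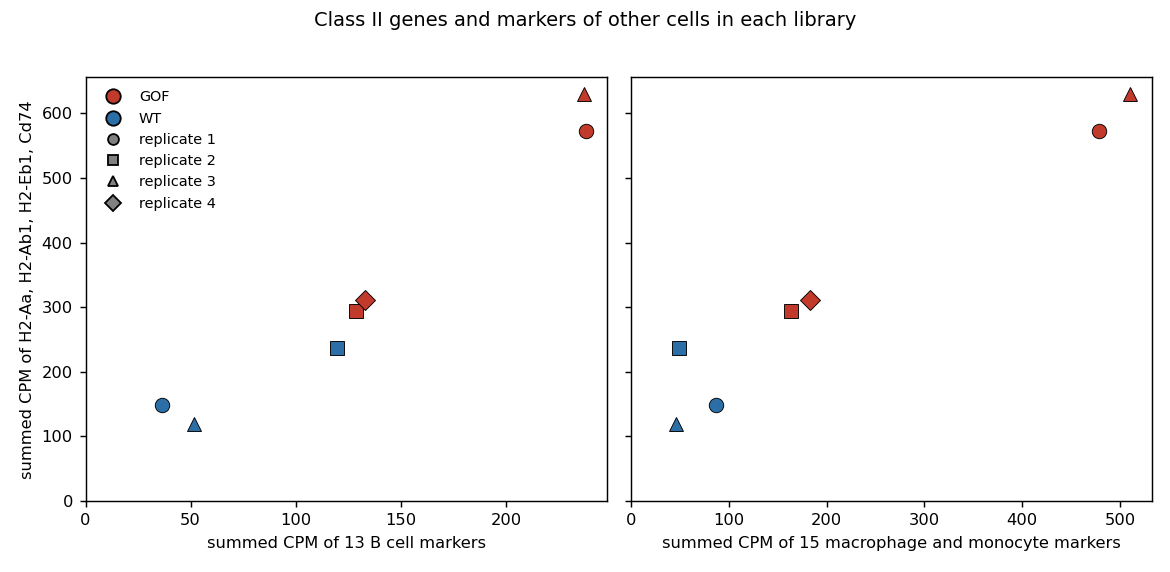
Summed CPM of H2-Aa, H2-Ab1, H2-Eb1 and Cd74 (vertical axis) against the summed CPM of 13 B cell markers (left) and of 15 macrophage and monocyte markers (right), 1 symbol per library, GOF in red and WT in blue. WT replicate 2 lies beside GOF replicates 2 and 4 on the left and apart from them on the right.

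Among 9034 other genes with a mean of at least 5 CPM, leaving out pseudogenes, unnamed gene models and antigen receptor loci, the 6 whose profile over the 7 libraries lay nearest to the mean of H2-Aa, H2-Ab1, H2-Eb1 and Cd74 were Plek, Marcks, Unc93b1, C3, Cd79a and Grn. The measure was the Euclidean distance between centred log2(CPM + 0.5) values, which ran from 0.216 for Plek to 0.583 for Grn. Members outside the mean lay at 0.684 (H2-DMb1), 1.36 (H2-DMb2), 1.57 (H2-Oa), 1.64 (H2-DMa), 1.98 (Ciita) and 3.06 (H2-Ob). Plek, the protein kinase C substrate pleckstrin, had 26.6, 12.1, 29.5 and 15.2 CPM in GOF and 5.46, 10.8 and 5.15 CPM in WT libraries. Marcks, also a substrate of protein kinase C, had 22.3, 12.8, 26.0 and 11.1 CPM in GOF and 5.39, 8.95 and 4.04 CPM in WT libraries. Unc93b1 is a chaperone of endosomal Toll-like receptors, C3 a complement component, Cd79a a signalling chain of the B cell receptor and Grn the growth factor progranulin. Their log2 fold changes were 1.49, 1.92, 1.12 and 1.22. Without GOF replicates 1 and 3 those of C3, Cd79a and Grn were 1.04, 0.50 and 0.69. Plek and Marcks then had 0.92 and 0.96, against 1.54 and 1.56 with all 7 libraries. The likeness was chosen by these same libraries, so no test is attached to it.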

How the data were processed

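Naive CD4 T cells from 4 GOF and 3 WT mice were profiled by paired-end RNA sequencing, per the labels' protocols. The authors deposited raw counts and FPKM per gene and library for 34745 genes. Per the submitters' processing notes the tools were HISAT2 2.0.4, Cufflinks 2.1.1 and Cuffdiff on mm10. The sources used here do not give the roles of these tools, the counting rule, the strand setting or any batch or date. The deposited FPKM equals count over gene length and library total within 0.0589%. The 27 symbols stored as dates were restored by Ensembl identifier.

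Counts were tested with edgeR 4.0.16 (R 4.3.3): filterByExpr, TMM, 1 quasi-likelihood model over 7 libraries, Benjamini-Hochberg adjustment over 12668 genes, threshold 0.05. SE came from fold change and F statistic. DESeq2 1.42.0, limma 3.58.1, other scalings and filters, and omitted libraries were alternatives. On counts simulated for these 12668 genes, 65% of changes of 1 and 88% of changes of 2 on the log2 scale were recovered. Of the calls on them 7.27% were false. The simulated libraries held no split between GOF replicates. Sequences are from RefSeq (GRCm38.p6) and gene overlaps from GENCODE M21.

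The members and lists were chosen with earlier results of these data known. Named are all members, Pik3cd, in each list up to 4 passing genes with the smallest p and 2 non-passing with the highest level, and the 6 nearest profiles. The values of 1 gene that this rule names are not reported here. Markers of cell types and genes the text says were named after their values were seen fall outside the rule, as do Cd3e, Trac, Psmb8, Tap2 and Gm20506, and the marker genes singled out were chosen after their values were seen. No libraries of a group agreed within sampling noise.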

Additional observations from a re-analysis of the deposited data

Results flagged for a closer look

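Rab7 was the 1 gene of 56 checked in which a GOF library stood apart from the other 3. It had 131.0 CPM in GOF replicate 3, and 154.7 to 156.2 CPM in GOF replicates 1, 2 and 4, so that the gap was 0.941 of the range. Dixon's limit for such a gap, which is smaller, is passed by chance in about 1 in 20 groups. All 4 values lay below the lowest WT value of 195.9 CPM. No class II member was set apart in this way.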

How the results depend on the processing

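The 7 higher and 1 lower members were counted again under 20 alternatives. The 7 other scalings, count filters and count models, DESeq2 among them, left both counts as they were, and in limma 7 or 8 members were higher and 1 lower. Leaving out 1 library gave 3 to 8 higher members (3 without WT replicate 3) and 1 lower member each time. Without GOF replicates 1 and 3 there were 1 higher member and 1 lower, and among all genes 1074 higher and 1050 lower. Without GOF replicates 2 and 4, 0 members were lower in edgeR at an adjusted p under 0.05, and 1, H2-Ob, had an unadjusted p of 0.0173. In all, 2130 genes were higher and 1838 lower, or 53.7% higher, and with library totals alone 2527 and 1428, or 63.9%. In limma with a mean FPKM of at least 1, 1220 were lower. Leaving out 1 library gave 1615 to 2091 higher and 1374 to 1819 lower genes. Same-numbered libraries did not deviate together (r = 0.0256, 0.147 and -0.0406 for numbers 1 to 3), and with the replicate number as a block 6 members were higher, H2-Aa being lost at an adjusted p of 0.0514, and 1677 genes were higher and 1519 lower.

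No member changed sign under any alternative. The 4 genes that did so, H2-D1, H2-K1, Nfyc and Creb1, had not passed. H2-D1 (log2 fold change) was 0.0356 with upper-quartile factors, 0.0355 with totals, 0.0362 in each limma fit, 0.0007 without GOF replicate 2, 0.0304 without WT replicate 1, with a range of -0.0924 to 0.0304 when 1 library was left out, and 0.0099 without GOF replicates 2 and 4. H2-K1 was -0.0146 without GOF replicate 4, -0.0676 without WT replicate 3, in a range of -0.0676 to 0.0778, and -0.0048 with the block. Nfyc was 0.0326 with upper-quartile factors, 0.0292 with totals, 0.0354 and 0.04 in limma with pseudocounts of 1 and 0.1, 0.0788 without WT replicate 3, in a range of -0.1647 to 0.0788, and 0.0533 without GOF replicates 2 and 4. Creb1 was 0.1034 without GOF replicate 3, 0.0674 without WT replicate 2, in a range of -0.3057 to 0.1034, and 0.181 without GOF replicates 1 and 3. The causes were not tested. Among the related lists, the count of higher genes without GOF replicates 1 and 3 was 2 for transcription, 4 for processing, 2 for co-stimulation and 0 for the wider region. Co-stimulation also had 3 without GOF replicate 3 or WT replicate 1 and in each limma fit. The wider region had 0 without GOF replicate 1, GOF replicate 3, WT replicate 1 or WT replicate 3 and with the block, and 1 without GOF replicate 4. Lower genes numbered 5 for transcription without GOF replicate 2 and 2 for the wider region without WT replicate 3. Each dendritic cell list had 4 higher with DESeq2. Conventional dendritic cells had 4 with no filter and 5 in limma with a pseudocount of 0.1, and plasmacytoid ones 4 without WT replicate 2. Ciita has no value in limma with a mean FPKM of at least 1, which it misses. Ciita had 2 to 66 counts in WT libraries of similar depth.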
